A study of Mus musculus with 6 samples.

Results

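The 8 genes of the Trem2-linked program of fat macrophages, Trem2, Tyrobp, Gpnmb, Apoe, Cd9, Fabp5, Lgals3 and Spp1, were followed in mouse adipose tissue. They were taken by symbol from a table of 22134 genes, and all 8 were found. RNA was sequenced from 3 creeping fat samples (fat that wraps injured bowel) of wild-type mice whose colon had been injured by cautery repeatedly, and from 3 samples of mesenteric adipose tissue of wild-type mice without injury (control). The labels give no age, sex or strain and do not state that each sample is a different mouse. The p-values therefore reflect the spread of these samples alone, which could be technical. Values are FPKM, fragments scaled by gene length and library total, which allows levels of different genes to be compared.

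Macrophages that gather around dying or overfilled fat cells take up lipid and enter a state known as the lipid-associated macrophage. Its receptor TREM2 binds lipids and lipoproteins at the cell surface and has no signalling tail of its own, so it signals through the adaptor TYROBP (DAP12). Loss of Trem2 in mice is known to prevent much of this state, which includes genes of lipid carriage (Apoe, Fabp5), of lysosomes (Gpnmb), of the cell surface (Cd9) and of secreted proteins that act on tissue repair (Lgals3, Spp1). Several of these genes are also made by other cells, among them adipocytes, endothelium, epithelium and fibroblasts, and in bulk tissue fewer cells of a type and less RNA per cell cannot be told apart.

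Library totals were inferred from the FPKM values and the RefSeq lengths of 369 genes. They lay between 31186018 and 43415696 reads, and the depths of the groups overlapped. Values of a group are given in the order of its libraries 1, 2 and 3. Control 2 stood apart on the second principal component (19.7% of the variance) and creeping fat 2 on the third (7.34%). On the first (66.7%) they were also the libraries nearest to the other group, at 30.4 for control 2 and -34.7 for creeping fat 2. The other creeping fat libraries lay at -57.4 and -50.5 and the other controls at 61.5 and 50.6. Results are therefore also given without both of these libraries. That choice was made from these data and leaves out the least separated libraries, which tends to widen the differences between the groups. The tissue was mixed: 9 seminal vesicle markers summed to between 16333 and 31556 FPKM in creeping fat and at most 54.4 FPKM in controls, while 12 pancreatic acinar markers summed to between 12.7 and 4592 FPKM in creeping fat and between 13876 and 34827 FPKM in controls. Adipocyte markers (8 genes) were present in every library and summed to 693, 1948 and 1088 FPKM in the creeping fat libraries, against 9305, 2992 and 6856 FPKM in the control libraries. These 3 lists differed between the groups, and their part in the members' differences was not tested. With the seminal vesicle and pancreatic markers taken out of the totals, the members' log2 differences moved by less than their standard errors. That step changes the scaling only, so it cannot show whether those tissues added RNA of the members.

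Of the 8 members, 7 rose in creeping fat and 1, Fabp5, did not pass. The number called was 3 without control 3 (Trem2, Cd9 and Spp1), 4 without creeping fat 1 or creeping fat 3, 6 without control 1, and 7 without creeping fat 2 or control 2. In the same order, these fits called 626, 576, 639, 784, 700 and 2896 of all 12812 genes tested higher. The full fit called 1198 higher. Calls rest on limma's adjusted p being under 0.05, with Benjamini-Hochberg adjustment over all 12812 genes tested, of which 9.35% were called higher and 6.81% lower. On recovered reads, voom called the same number of members, 7, and 9.37% of all genes, higher. The median log2 fold change of the 8 members was 1.72, against 0.02 for all genes tested. The 2 groups did not overlap in those 7 members, and among all tested genes the groups did not overlap in 20.2% with creeping fat higher and in 37% in either direction. The members differed widely in size of change, from Spp1 at 54.4 times the control mean to Apoe at 2.18 times, on the FPKM scale.

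**Figure D1:**
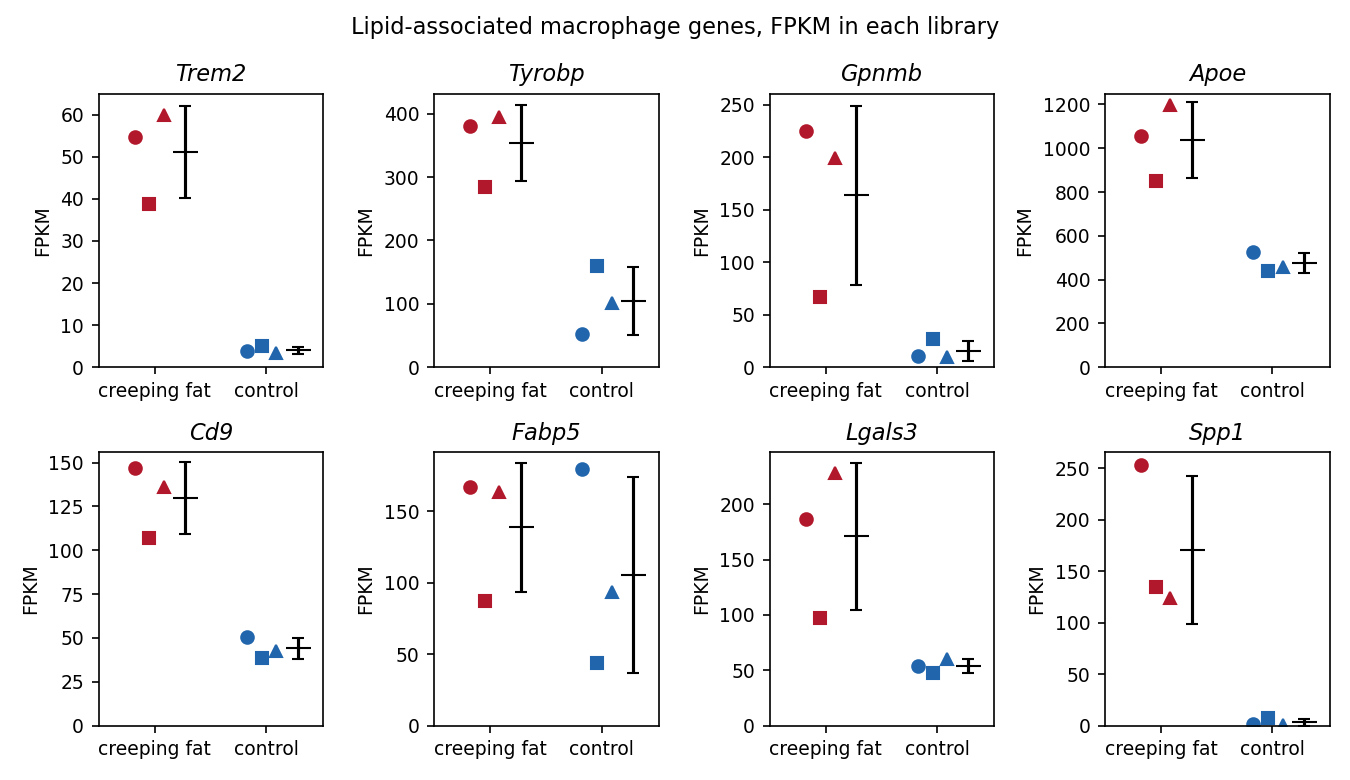
FPKM (vertical axis, linear from 0) of the 8 members in the libraries of creeping fat (red) and control (blue). Circles, squares and triangles are libraries 1, 2 and 3, and the black bar is the mean with the SD (n = 3). All members except Fabp5 have every creeping fat library above every control library.

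Trem2 encodes the lipid-sensing receptor itself. It stood at 54.7, 38.9 and 59.9 FPKM in the creeping fat libraries, against 3.77, 4.98 and 3.38 FPKM in the control libraries, from 2265, 1557 and 2255 reads and from 168, 178 and 168 reads. The groups lay far apart, with creeping fat 2 the lowest of its group and control 2 the highest of its own. The mean was 51.2 ± 10.9 FPKM in creeping fat and 4.04 ± 0.836 FPKM in controls (SD, n = 3 each). The log2 fold change was 3.36 ± 0.21 (SE; limma adjusted p = 0.000464), the 49th largest rise among the genes tested. Trem2 was called in each of the 17 alternative settings, with log2 fold changes from 2.62 (pseudocount 5) to 3.68 (voom on recovered reads).

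The gene Trem2 is protein coding and lies on the plus strand at chr17:48346401-48354147 (GRCm38, GENCODE M21), in a cluster of receptor genes of the same family. Few of these relatives were expressed. Treml2, the 1 other member of the family list that passed the filter, had a log2 fold change of -0.58 ± 0.48 (adjusted p = 0.478). Trem1, which amplifies inflammatory signals in neutrophils and monocytes, was under the filter, at 2.51, 2.06 and 0.532 FPKM in creeping fat and 0.0499, 0.00889 and 0.0958 FPKM in controls.

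TREM2 needs the adaptor TYROBP, which carries the activating signalling motif for a set of myeloid and natural killer cell receptors. Tyrobp stood at 381, 285 and 396 FPKM in the creeping fat libraries, against 52.4, 160.4 and 101 FPKM in the control libraries. Creeping fat 2 was again the lowest of its group and control 2 the highest of its own, and the groups did not overlap. The log2 fold change was 1.87 ± 0.40 (SE; adjusted p = 0.0217). Tyrobp was not called without creeping fat 1 (1.81, adjusted p = 0.0873), without creeping fat 3 (1.79, 0.0844) or without control 3 (1.92, 0.0773), and it was 2.40 (adjusted p = 0.000906) without creeping fat 2 and control 2. The FPKM of Trem2 per FPKM of Tyrobp was 0.144, 0.137 and 0.151 in the creeping fat libraries, against 0.0719, 0.031 and 0.0335 in the control libraries, higher in every creeping fat library than in any control.

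Tyrobp (chr7:30413760-30417585, plus strand) lies 127 bases from Hcst on the other strand, a second adaptor (DAP10) that can pair with the same receptors. Hcst stood at 5.57, 10.6 and 8.27 FPKM in creeping fat and 2.21, 11.0 and 4.27 FPKM in controls, with overlapping groups (0.60 ± 0.48, adjusted p = 0.463). Of 8 tested receptors other than TREM2 that pair with TYROBP, 4 rose and 0 fell, against 9.35% and 6.81% of all genes tested. Their median log2 fold change was 1.26. Cd300ld, a receptor of the CD300 family, rose by 1.79 ± 0.27 (adjusted p = 0.00758) and its relative Cd300lb averaged 8.76 ± 1.79 FPKM in creeping fat and 2.43 ± 0.340 FPKM in controls (SD, n = 3 each; limma adjusted p = 0.0037). Sirpb1c, of the signal-regulatory protein family, stood at 3.77 ± 1.51 FPKM in creeping fat and 0.421 ± 0.452 FPKM in controls (SD, n = 3 each; log2 fold change 1.74, limma adjusted p = 0.0153), and may share reads with its close copies Sirpb1a and Sirpb1b. The count of receptors called was 3 without creeping fat 1, without creeping fat 2 or without control 3, and 6 without control 2. In the same fits 576, 700, 626 and 2896 of all 12812 genes tested were called higher.

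In the list of 23 partners and signalling genes of the receptor, 3 rose and 1 fell, against 9.35% and 6.81% of all genes tested. Of 23 fold changes 22 were positive, with a median of 0.60. The genes that rose were Ms4a7 (log2 fold change 2.54 ± 0.49, limma adjusted p = 0.016), Ms4a6d (2.38 ± 0.36, 0.00792) and Ms4a4a (2.26 ± 0.31, 0.00581), membrane proteins of a locus that in humans is linked to the level of soluble TREM2. Il34, which encodes a ligand of the receptor CSF1R that sustains macrophages, fell to 3.13 ± 0.355 FPKM in creeping fat, against 5.47 ± 0.859 FPKM in controls (SD, n = 3 each; limma adjusted p = 0.0381). Without creeping fat 1, without creeping fat 3 or without control 3, Ms4a7 was not called (2.38 to 2.57), and Il34 was not called when creeping fat 1, 2 or 3 or control 3 was left out (-0.69 to -0.57). Syk, the kinase that TYROBP recruits, stood at 27.8, 17.1 and 29.9 FPKM in creeping fat and 9.32, 60.1 and 17.6 FPKM in controls (0.15 ± 0.62, adjusted p = 0.906), so control 2 was the highest library. Without control 2 the number of these genes called higher was 21, and it was also 21 with creeping fat 2 left out as well, where 21.2% of all genes tested were called higher. With control 2 alone left out, 2896 of all 12812 genes tested were called higher. Control 2 also held the highest sums of natural killer cell markers (37.9 FPKM, against at most 11.0 FPKM in every other library) and of dendritic cell markers (106 FPKM, against at most 60.1 FPKM), and the part of these cells in the control 2 values was not tested.

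Gpnmb encodes a transmembrane glycoprotein of lysosomes and melanosomes and is a marker of lipid-laden macrophages. It stood at 225, 66.5 and 199.7 FPKM in the creeping fat libraries, against 10.5, 26.4 and 9.50 FPKM in the control libraries. Creeping fat 2 was far under the other creeping fat libraries but above control 2, the highest control, so the groups did not overlap. The log2 fold change was 3.28 ± 0.55 (SE; adjusted p = 0.0105). It was 3.03 without control 3, at the edge of the call (adjusted p = 0.05001), and 4.28 (adjusted p = 6.09e-06) without creeping fat 2 and control 2. Gpnmb is also made by melanocytes, whose 5 markers were all under the filter and summed to at most 3.29 FPKM in any library, with Tyrp1 at 0 in all 6.

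Spp1, which encodes the secreted matrix phosphoprotein osteopontin, had the largest change of the 8. It stood at 253, 135 and 124 FPKM in the creeping fat libraries, against 1.47, 7.41 and 0.528 FPKM in the control libraries, from 15159, 7809 and 6740 reads and from 95, 383 and 38 reads. The control libraries differed widely among themselves, with control 2 the highest, and all lay far under the creeping fat libraries. In limma the log2 fold change was 5.68 ± 0.62 (SE; adjusted p = 0.00289), the 15th largest rise, and was called in each of the 17 alternative settings, from 4.45 (pseudocount 5) to 6.63 (voom). Spp1 lies at chr5:104435118-104441050 on the plus strand beside other genes of bone and tooth matrix phosphoproteins. None of these passed the filter: Mepe was at 0 in all 6 libraries, Ibsp reached 0.0156 FPKM in creeping fat 3 and was at 0 elsewhere, and Dmp1 and Dspp reached at most 0.313 and 0.0561 FPKM.

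Trem2, Gpnmb and Spp1 changed most, so their promoters are shown, 250 bases before to 50 after the start in RefSeq (GRCm38.p6), with motif matches in capitals. The motifs searched on both strands were CACGTG and TCATGTG (boxes bound by MiT/TFE factors), GAGGAAGT (bound by the myeloid factor PU.1) and TGANTCA. The pattern TGANTCA covers the AP-1 site, TGACTCA or TGAGTCA, but also takes A or T at its middle base. As a pattern TGANTCA reads the same on both strands, and no match overlapped another. The Trem2 sequence is chr17:48346151-48346450, that of Gpnmb chr6:49036268-49036567 and that of Spp1 chr5:104434861-104435160, all on the plus strand.
Trem2: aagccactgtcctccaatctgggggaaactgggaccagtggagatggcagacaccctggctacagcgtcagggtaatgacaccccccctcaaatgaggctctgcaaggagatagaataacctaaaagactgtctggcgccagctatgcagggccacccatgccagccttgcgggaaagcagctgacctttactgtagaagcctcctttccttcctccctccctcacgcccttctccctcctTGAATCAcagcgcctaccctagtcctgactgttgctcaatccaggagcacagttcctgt
Gpnmb: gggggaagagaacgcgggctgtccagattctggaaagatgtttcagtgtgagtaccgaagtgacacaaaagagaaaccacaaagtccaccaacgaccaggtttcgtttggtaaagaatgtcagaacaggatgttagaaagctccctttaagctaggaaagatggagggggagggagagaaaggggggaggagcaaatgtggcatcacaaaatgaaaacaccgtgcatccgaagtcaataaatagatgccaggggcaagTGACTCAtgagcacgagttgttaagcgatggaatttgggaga
Spp1: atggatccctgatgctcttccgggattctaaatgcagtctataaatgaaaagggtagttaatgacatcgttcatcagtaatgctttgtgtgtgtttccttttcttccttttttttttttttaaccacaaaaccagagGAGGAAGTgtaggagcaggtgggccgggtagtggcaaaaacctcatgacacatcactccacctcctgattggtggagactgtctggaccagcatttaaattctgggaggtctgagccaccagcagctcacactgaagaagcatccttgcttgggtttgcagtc
The match in Trem2, TGAATCA, lies at bases -9 to -3 and that in Gpnmb, TGACTCA, at bases 9 to 15, counted from the start. Both are to TGANTCA, which 7.81% of the table's 32851 promoters hold, and only the Gpnmb match is the AP-1 site. The match in Spp1 is to GAGGAAGT at bases -113 to -106, a motif in 3.20% of promoters. Spp1 has another promoter in RefSeq, chr5:104435942-104436241, which is not shown and held no match. Of the 8 members, 6 matched the table with 9 promoters in all; Tyrobp and Fabp5 had no entry. TGANTCA was in 2 of these 9 promoters, GAGGAAGT in 1, and CACGTG and TCATGTG in 0, against 7.15% and 3.77% of all promoters for the last pair. These are matches of letters and not measured binding.

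Apoe was the most abundant member. It encodes apolipoprotein E, which carries cholesterol out of macrophages and is a ligand of TREM2. Apoe stood at 1058, 852 and 1199 FPKM in the creeping fat libraries, against 526, 439.5 and 459 FPKM in the control libraries. The groups did not overlap, and the controls lay close together. The fitted log2 fold change was 1.11 ± 0.20 (SE; adjusted p = 0.0135), the smallest of the 7 that were called. Apoe was not called without creeping fat 1 (1.09, adjusted p = 0.0725), without creeping fat 3 (1.00, 0.0684) or without control 3 (1.09, 0.0598), nor with no filter on low values (1.11, 0.0596). Per FPKM of Trem2 it stood at 19.4, 21.9 and 20.0 in creeping fat, against 139, 88.3 and 136 in controls.

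Apoe (chr7:19696109-19699188, minus strand) has other apolipoprotein genes as neighbours. Apoc2 and Apoc4 were low, with at most 0.255 and 2.58 FPKM in any library. Apoc1, which modulates lipoprotein uptake, stood at 57.4, 98.2 and 73.4 FPKM in creeping fat and 141, 49.5 and 95.7 FPKM in controls, with overlapping groups (-0.23 ± 0.39, adjusted p = 0.757). Of 7 tested lipoprotein receptors and lipid transfer genes, 2 rose and 2 fell, against 9.35% and 6.81% of all genes tested. Pltp, the phospholipid transfer protein, rose by 1.34 ± 0.18 (adjusted p = 0.00498) and Lrp1, a receptor that takes up apolipoprotein E, by 1.20 ± 0.18 (adjusted p = 0.00775). Sort1, the sorting receptor sortilin, had a log2 fold change of -1.45 ± 0.29 (adjusted p = 0.019) and Scarb1, the scavenger receptor for high-density lipoprotein, of -1.01 ± 0.18 (adjusted p = 0.0118). The falls of both were lost without creeping fat 1, where 0 of these genes were called lower, and 1 was called lower without creeping fat 3, control 1 or control 3. In the same fits 287, 342, 510 and 306 of all 12812 genes tested were called lower.

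Fabp5, an intracellular carrier of fatty acids, was the 1 member not called. It stood at 167, 87.0 and 163 FPKM in the creeping fat libraries, against 180, 43.5 and 93.5 FPKM in the control libraries, so control 1 lay above every creeping fat library. On the log2 scale the change was 0.56 ± 0.52 (SE; adjusted p = 0.536), with a 95% interval from -0.68 to 1.79, and was not called in any of the 17 alternative settings, where it ran from 0.04 (without control 2) to 1.05 (without control 1). Adipocytes and endothelium also make Fabp5, and 7 endothelial markers summed to 226, 201 and 183 FPKM in creeping fat and 318, 311 and 317 FPKM in controls. In the controls its order, with control 1 above control 3 above control 2, was that of the adipocyte marker sums of 9305, 6856 and 2992 FPKM. In creeping fat its order was the reverse of that of the adipocyte marker sums, 693, 1948 and 1088 FPKM in libraries 1, 2 and 3. The part of adipocytes and endothelium was not tested.

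Fabp4, the relative of Fabp5 that adipocytes make in large amounts and macrophages also make, stood at 372, 843 and 503 FPKM in the creeping fat libraries, against 4764, 1703 and 4953 FPKM in the control libraries. It had a log2 fold change of -2.66 ± 0.50 (SE; adjusted p = 0.0147) and was the 1 gene called among 5 tested of its family, though it was not called without creeping fat 1, creeping fat 3, control 1 or control 3. Of all genes tested, 9.35% were called higher and 6.81% lower. Per FPKM of Fabp4, Fabp5 stood at 0.449, 0.103 and 0.325 in creeping fat, against 0.0377, 0.0256 and 0.0189 in controls. The groups did not overlap in this ratio, and the ratio carries the fall of Fabp4.

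Cd9 encodes a tetraspanin that organises other proteins in the cell membrane. It stood at 147, 107 and 136 FPKM in the creeping fat libraries, against 50.7, 38.8 and 42.5 FPKM in the control libraries. Library 2 was the lowest of either group and the groups did not overlap. In limma the log2 fold change was 1.54 ± 0.18 (SE; adjusted p = 0.0037), and Cd9 was called in each of the 17 alternative settings, from 1.44 to 1.67. Cd9 (chr6:125460266-125494791, minus strand) is overlapped by Gm28809 and Gm26728 on the opposite strand, and since the strand setting of the counting is not known, their reads cannot be told apart from those of Cd9. Spp1 is overlapped by Gm42793 on its own strand, so reads in the overlap may belong to either gene.

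Other tetraspanins were called in both directions. Of 26 tested of the family, Cd9 included, 5 rose and 3 fell, against 9.35% and 6.81% of all genes tested. The median log2 fold change was 0.09. Tspan8 (2.33 ± 0.32, adjusted p = 0.00545) and Tspan1 (2.33 ± 0.43, 0.0142), both made by epithelia, had the largest rises, and 6 epithelial markers summed to 84.7, 112 and 45.2 FPKM in creeping fat and 19.4, 36.5 and 22.1 FPKM in controls; the part of epithelium was not tested. Tspan12, which takes part in vascular Wnt signalling, had a log2 fold change of -1.73 ± 0.27 (adjusted p = 0.0083), and Tspan7 of -1.23 ± 0.14 (0.00362). The number called higher was 2 without creeping fat 1 and 3 without creeping fat 2, creeping fat 3 or control 3, and the number called lower was 5 without control 2. Those fits called 576, 700, 639 and 626 of all 12812 genes tested higher, and 1857 were called lower without control 2.

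Lgals3 encodes galectin-3, a lectin that binds sugars on damaged lysosomes and at the cell surface. It stood at 187, 97.7 and 228 FPKM in the creeping fat libraries, against 54.0, 47.4 and 59.9 FPKM in the control libraries. Creeping fat 2 was the lowest of its group, the controls lay close together, and the groups did not overlap. The fitted log2 fold change was 1.57 ± 0.32 (SE; adjusted p = 0.0184). Lgals3 was not called without creeping fat 1 (1.47, adjusted p = 0.0806), creeping fat 3 (1.32, 0.062), control 1 (1.58, 0.0575) or control 3 (1.65, 0.0619), and it was 1.84 (0.000333) without creeping fat 2 and control 2.

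Among 9 tested genes of the galectin list, Lgals3 and Lgals9, which binds T cell receptors such as TIM-3, rose and 2 fell. The shares over all genes tested were 9.35% higher and 6.81% lower. The list includes Lgals3bp, which encodes a protein that binds galectin-3 and is not itself a galectin, and which was not called. Lgals9 changed by 0.82 ± 0.14 on the log2 scale (adjusted p = 0.00999). Lgals12, a galectin of adipocyte lipid droplets, had a log2 fold change of -2.58 ± 0.33 (adjusted p = 0.00436), and Lgals2 of -0.85 ± 0.18 (0.0227). Lgals1, a secreted lectin of many cell types, stood at 337.5, 493 and 308 FPKM in creeping fat and 662, 220.5 and 643 FPKM in controls and was not called (adjusted p = 0.729). No galectin was called higher without creeping fat 1, 1 was called higher without creeping fat 3, control 1 or control 3, and 1 was called lower without creeping fat 1, creeping fat 3, control 1 or control 3. Over all 12812 genes tested, these fits called 576, 639, 784 and 626 higher. They called 287, 342, 510 and 306 lower.

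The integrins and CD44 that bind osteopontin were tested with Spp1 in view. Of 9 receptor genes, 4 rose and 0 fell, against 9.35% and 6.81% of all genes tested. The median log2 fold change was 0.57. Itga5 rose by 1.13 ± 0.15 (adjusted p = 0.00529), Cd44, the receptor of hyaluronan and osteopontin, by 1.00 ± 0.27 (0.0479) and Itgb5 by 1.00 ± 0.24 (0.0339). The count was 2 when any 1 library other than control 2 was left out, and 6 without control 2. Over all 12812 genes tested, 576 to 784 were called higher in the former fits and 2896 without control 2.

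Gpnmb is known as a target of the lysosomal MiT/TFE factors. Of 19 tested genes of these factors and of the proton pump of lysosomes, 2 rose and 0 fell, with a median log2 fold change of 0.18. The share called higher was near the 9.35% of all genes tested. Atp6v0d2, a pump subunit of osteoclasts and macrophages, stood at 14.6, 7.22 and 13.9 FPKM in the creeping fat libraries, against 0.620, 1.40 and 0.781 FPKM in the control libraries (2.70 ± 0.29, adjusted p = 0.00276). Its libraries took the same order within creeping fat as those of Gpnmb, and within controls control 2 was the highest for both. Atp6v0c, another subunit, rose by 0.68 ± 0.13 (adjusted p = 0.0146). The number called was 1 when creeping fat 1, 2 or 3 or control 3 was left out, and 5 without control 2, where 2896 of all 12812 genes tested were called higher. In the fits with 1 called, 576 to 700 of all genes were called higher. Mitf, the factor itself, was not called (0.71 ± 0.21, 0.0687).

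Other genes of the lipid-associated state split in direction. Of 30 tested, 9 rose and 4 fell, against 9.35% and 6.81% of all genes tested. The median log2 fold change was 0.53. The genes that fell were Fabp4, Cd36, Lpl and Nr1h3. Cd36, a fatty acid transporter, averaged 46.7 ± 10.6 FPKM in creeping fat and 325 ± 172 FPKM in controls (SD, n = 3 each; limma adjusted p = 0.0135), and Lpl, the lipase that frees fatty acids from lipoproteins, averaged 150.5 ± 29.1 FPKM in creeping fat and 929 ± 501 FPKM in controls (limma adjusted p = 0.0173). Adipocytes make all 4 of these genes. In the controls Cd36, Lpl and Fabp4 were lowest in control 2, as was the sum of the adipocyte markers, of which 7 of 8 fell. Nr1h3 differed, at 14.3, 13.6 and 18.4 FPKM in creeping fat and 36.4, 46.4 and 40.2 FPKM in controls, highest in control 2. The part of adipocytes was not tested. The number called lower was 1, Nr1h3, without creeping fat 1, creeping fat 3 or control 3, was 2 without control 1 and was 7 without both creeping fat 2 and control 2. Those fits called 287, 342, 306, 510 and 1731 of all 12812 genes tested lower.

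Among the genes that rose were proteases and lysosomal proteins. Mmp12, the macrophage elastase, stood at 34.8, 9.39 and 49.1 FPKM in the creeping fat libraries, against 5.32, 3.35 and 3.79 FPKM in the control libraries (2.38 ± 0.55, adjusted p = 0.0302). Ctss, a cathepsin of antigen-presenting cells, rose by 2.19 ± 0.48 (0.0248), Clec7a, a receptor of fungal glucans, by 1.77 ± 0.46 (0.0436) and Capg, an actin-capping protein, by 1.67 ± 0.25 (0.00766). Lipa, Grn, Ctsl, Cd63 and Ctsb, all of the lysosome, rose by between 0.75 and 1.13. Itgax (CD11c), a surface marker of macrophages in obese fat, was not called (1.37 ± 0.59, 0.167), with creeping fat 2 at 7.73 FPKM and control 2 at 13.2 FPKM. The number called higher was 1, Capg, without creeping fat 1 or without creeping fat 3, was 4 without control 1, was 3 without control 3, was 16 without control 2 and was 18 without both creeping fat 2 and control 2. In the same fits 576, 639, 784, 626, 2896 and 2713 of all 12812 genes tested were called higher.

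**Figure D2:**
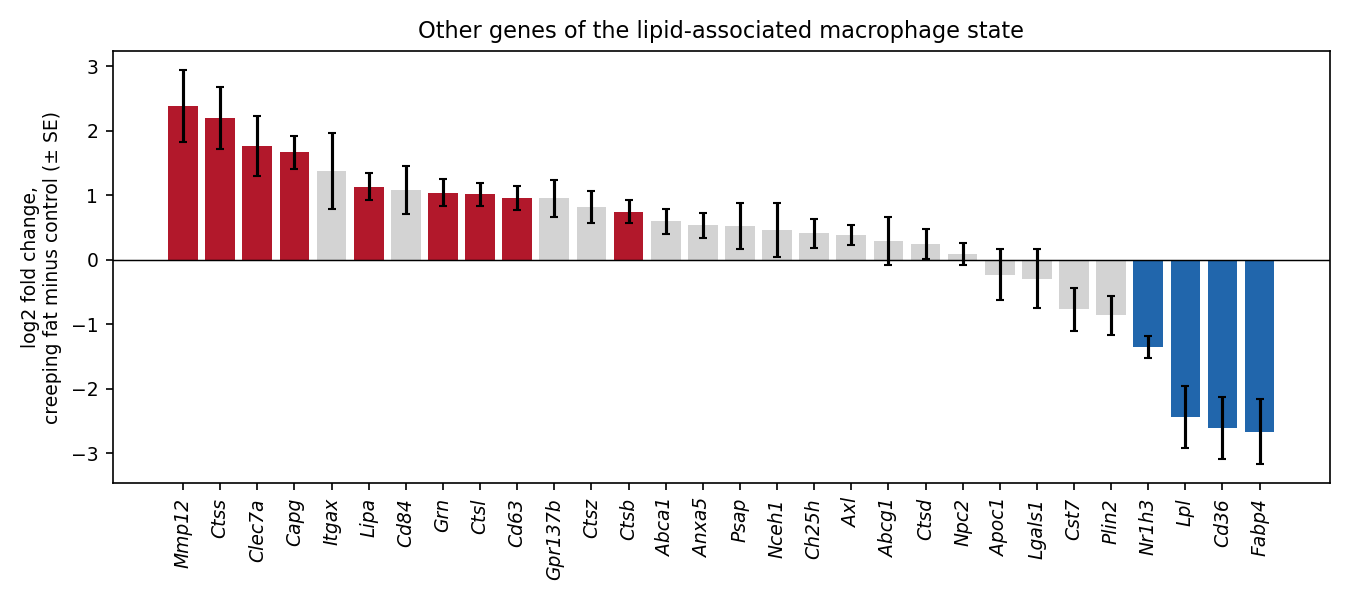
Log2 fold change (vertical axis, creeping fat minus control on log2(FPKM + 1)) with its standard error for the 30 tested genes of the lipid-associated state other than the members. Red bars are the 9 genes called higher, from Mmp12 at 2.38 down to Ctsb at 0.75, blue bars the 4 called lower, with Fabp4 lowest at -2.66, and grey bars were not called.

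General markers of macrophages were called in 1 direction. Of 12 general markers 7 rose and 0 fell, against 9.35% and 6.81% of all genes tested, and the median log2 fold change was 1.65. They summed to 5394, 3730 and 5911 FPKM in the creeping fat libraries, against 856, 2017 and 1424 FPKM in the control libraries, and Tyrobp put the 6 libraries in the same order as these sums. Lyz2, the macrophage lysozyme, rose by 2.20 ± 0.33 (adjusted p = 0.00758), Itgam (CD11b) by 1.99 ± 0.23 (0.0036) and Cd68, a lysosomal marker, by 1.96 ± 0.35 (0.013). Csf1r, the receptor on which macrophages depend, was not called (1.12 ± 0.37, 0.0917). The number called was 3 without creeping fat 1, creeping fat 3 or control 3, and 11 without control 2. Those fits called 576, 639, 626 and 2896 of all 12812 genes tested higher.

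The members were therefore also set against the mean log2(FPKM + 1) of the 12 general markers in the same library. On this scale Trem2 stood at -1.22, -1.41 and -1.11 in the creeping fat libraries, against -2.48, -3.57 and -3.31 in the control libraries, a difference of 1.87. Gpnmb stood at 0.80, -0.65 and 0.61 in creeping fat, against -1.21, -1.37 and -2.05 in controls, a difference of 1.80. Spp1 stood at 0.97, 0.35 and -0.08 in creeping fat, against -3.43, -3.07 and -4.83 in controls, a difference of 4.20. Tyrobp differed by 0.39, at 1.56, 1.43 and 1.59 in creeping fat and 1.00, 1.19 and 1.23 in controls. The groups did not overlap in Trem2, Gpnmb, Spp1 and Tyrobp, and each gave an exact two-sided permutation p of 0.1, the smallest that 3 against 3 libraries allow.

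The other 4 members overlapped relative to the macrophage markers. The differences were -0.37 for Apoe (exact permutation p = 0.6), 0.05 for Cd9 (0.8), 0.08 for Lgals3 (0.9) and -0.93 for Fabp5 (0.5). None of these 4 kept its sign in every alternative: without control 2 the difference was -0.39 for Cd9 and -0.35 for Lgals3, without control 1 it was 0.055 for Apoe, and relative to Ptprc alone it was 1.00 for Apoe and 0.44 for Fabp5. Cd9 averaged 0.09 ± 0.09 in creeping fat and 0.04 ± 0.89 in controls (SD, n = 3 each), so the controls spread widely. With this design no member could pass 0.05, and a p above it does not show that a ratio was equal.

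**Figure D3:**
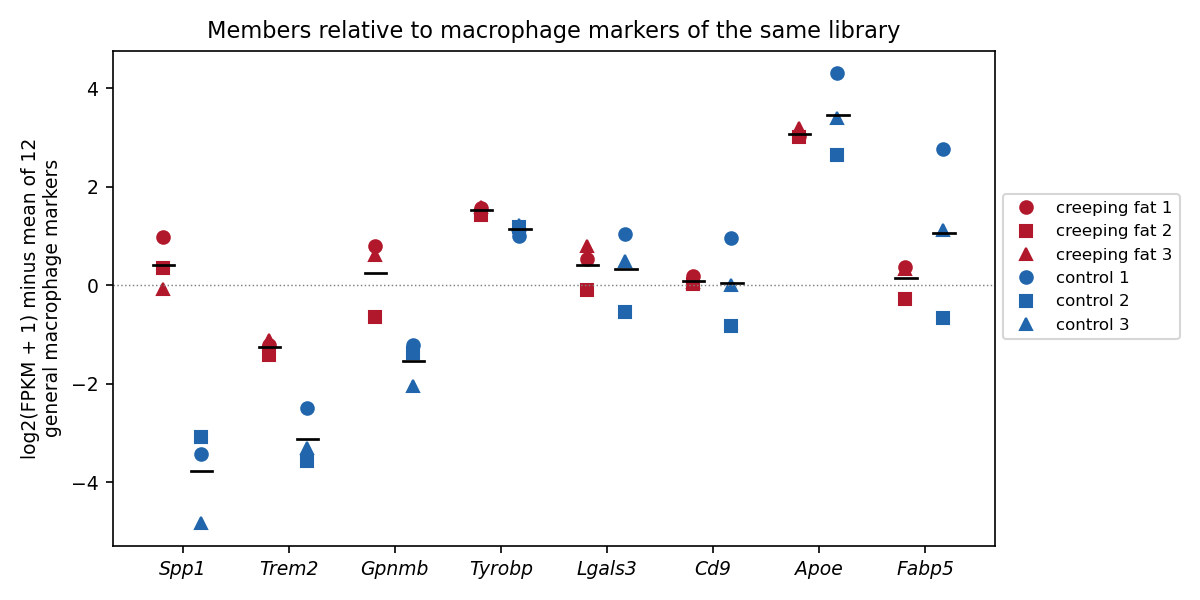
Level of each member as log2(FPKM + 1) minus the mean of 12 general macrophage markers in the same library (vertical axis), in creeping fat (red) and control (blue); circles, squares and triangles are libraries 1, 2 and 3 and black lines the means. Spp1, Trem2, Gpnmb and Tyrobp have every creeping fat library above every control library, and Lgals3, Cd9, Apoe and Fabp5 overlap.

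Markers of macrophage subsets and of related cells did not all follow. Of 10 resident macrophage markers, 2 rose and 0 fell, against 9.35% and 6.81% of all genes tested. Their median log2 fold change was -0.02. Gas6, a bridge to dying cells, rose by 1.51 ± 0.17 (adjusted p = 0.00346) and Mrc1, the mannose receptor, by 1.00 ± 0.21 (0.0225). The number called higher was 1 when any 1 creeping fat library was left out. Without control 2 the number called lower was 2, and without both creeping fat 2 and control 2 the counts were 2 higher and 2 lower, with a median of -0.39. Over all 12812 genes tested, 576, 700 and 639 were higher without creeping fat 1, 2 and 3, and 1857 lower without control 2. Without both libraries 2713 were higher and 1731 lower. Lyve1, a marker of vessel-associated macrophages and lymphatics, stood at 18.5, 16.9 and 24.1 FPKM in creeping fat and 28.5, 106.5 and 42.5 FPKM in controls and was not called (adjusted p = 0.0962). Of 8 monocyte markers, 4 rose and 0 fell, against the same shares of all genes. Vcan, a matrix proteoglycan, rose by 2.15 ± 0.32 (adjusted p = 0.00706) and Ly6c2, a marker of inflammatory monocytes, by 2.15 ± 0.50 (0.0304). Ccr2, the receptor that draws monocytes to tissue, rose by 1.44 ± 0.29 (0.0198). The number called was 2 without creeping fat 1 or creeping fat 3, and 6 without control 2. In the same fits 576, 639 and 2896 of all 12812 genes tested were called higher. Of 7 tested dendritic cell markers and 2 tested natural killer cell markers, 0 were called by limma, 0 had an unadjusted p under 0.05 and 0 were called by voom on recovered reads.

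Spp1 and Gpnmb are also made by osteoclasts. Of 5 tested osteoclast markers, 4 rose and 1 fell, against 9.35% and 6.81% of all genes tested. Ctsk, a collagen-degrading cathepsin that fibroblasts make too, averaged 84.0 ± 9.82 FPKM in creeping fat and 5.94 ± 0.660 FPKM in controls (SD, n = 3 each; log2 fold change 3.61, limma adjusted p = 9.72e-05). Mmp9, a gelatinase of neutrophils and osteoclasts, rose by 3.33 ± 0.25 (adjusted p = 0.000863). Acp5, the tartrate-resistant phosphatase, had a log2 fold change of -0.98 ± 0.26 (0.0487), and was not called when any 1 library other than control 2 was left out, and Calcr, a defining osteoclast receptor, was at most 0.0472 FPKM in any library. Fibroblast markers, 8 genes of which 7 rose, summed to 6098, 6007 and 4880 FPKM in creeping fat and 777, 617 and 803 FPKM in controls, and the number called was 4 without creeping fat 1 or creeping fat 3. Those fits called 576 and 639 of all 12812 genes tested higher. Neutrophil markers summed to 149.8, 85.3 and 57.4 FPKM in creeping fat and 11.4, 51.7 and 19.4 FPKM in controls. The part of osteoclasts, neutrophils and fibroblasts in Spp1 was not tested.

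**Figure D4:**
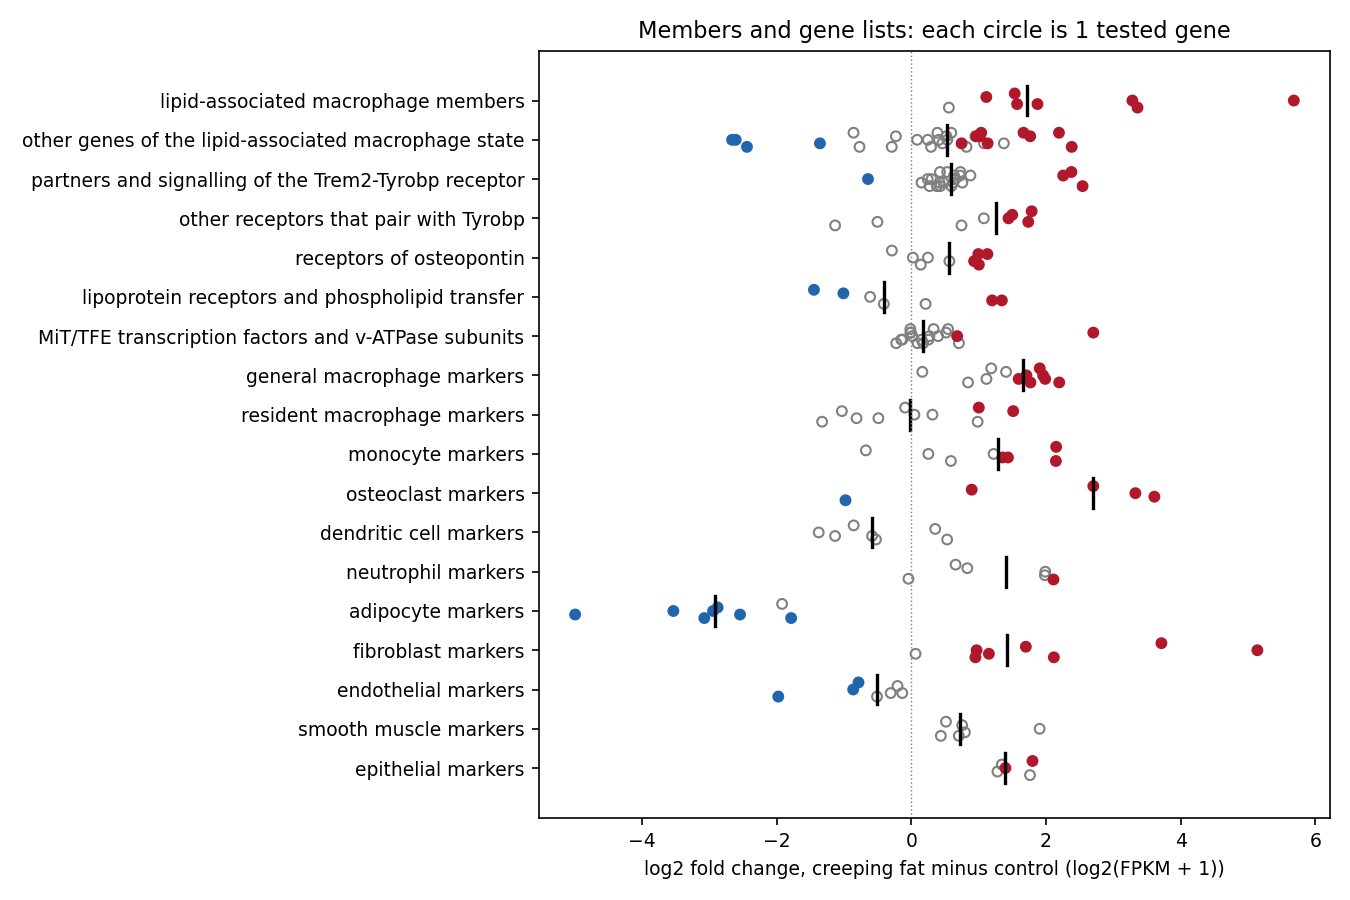
Log2 fold change (horizontal axis, creeping fat minus control on log2(FPKM + 1)) of each tested gene of the members and of pathway and marker lists; red circles were called higher, blue circles lower and open circles were not called, and the black line is the median. The members' median lies at 1.72, that of the general macrophage markers at 1.65 and that of the adipocyte markers at -2.91.

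The members' profiles over the 6 libraries lay at different distances from each other. Likeness was measured as the distance between log2(FPKM + 1) profiles, each centred on its own mean, over all 6 libraries, and the points share library and group. The profiles were not scaled, so the distance carries the size of the change between the groups. Genes with changes of different size lie apart even where they order the libraries alike. The closest members were Apoe and Cd9 (0.562) and the farthest Fabp5 and Spp1 (7.00). The tested gene nearest to Tyrobp was Fcer1g (0.159), the other adaptor of activating myeloid receptors, followed by Adgre1 (0.173). The genes nearest to Trem2 were Mdk (0.393), a growth factor, and Clec4d (0.489), a myeloid lectin. After them came Lum (0.713), which is on the fibroblast marker list, Mmp14 (0.737) and Ssc5d (0.754). Clec4d (1.10) was also the nearest to Gpnmb, with Atp6v0d2 next (1.17). Spp1 had no close neighbour: the nearest were Sfrp1 (1.73), an inhibitor of Wnt signalling, and Col1a1 (2.03) and Col1a2 (2.34), the chains of type I collagen. Cd9 lay nearest to Trnp1 (0.259), Gas6 (0.270) and the fibroblast marker Dcn (0.316). Apoe lay nearest to Entpd2 (0.227), Lgals3 to Dkk2 (0.352) and Fabp5 to Tent5b (0.827).

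Leaving out creeping fat 2 and control 2 together left the 7 called members called, with a median log2 fold change of 2.12 for the 8, in a fit where 21.2% of all genes tested were called higher and 13.5% lower. Of the 99 other list genes called, all 99 remained called there and none changed direction. Both libraries left out were the nearest to the other group on the first principal component, so that fit is not an independent check of the calls. With 1 library left out at a time, between 50 (without creeping fat 1) and 99 (without control 2) of the 99 remained called. Over all 12812 genes tested, these fits called 576 and 2896 higher and 287 and 1857 lower. Fold changes are on the log2(FPKM + 1) scale, which understates the change of genes with low values.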

How the data were processed

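Total RNA libraries were made with a stranded kit after removal of ribosomal RNA, per the labels' protocols. The authors deposited 1 table of FPKM values for the 6 libraries. Coordinates follow mm10, per the submitters' processing notes; which aligner, counting program, annotation and strand setting were used is not given in the sources used here. FPKM keep whole reads: for all 18714 genes above 0, values were whole multiples of 1 read within 0.002 reads. Reads so recovered made up 99.2% to 99.3% of the library totals, which were themselves inferred from the FPKM values. A floor of 3 reads in a 1 kb gene is 0.0691 to 0.0962 FPKM, which covers counting error only.

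Genes reaching 1 FPKM in 3 or more of the 6 libraries were tested on log2(FPKM + 1) in limma 3.58.1 (R 4.3.3) with the group as the only term and a mean-variance trend, two-sided, with Benjamini-Hochberg adjustment over all 12812 genes; the procedure was tested on simulated data. At an unadjusted p under 0.05, 2184 genes were higher and 1759 lower. Ratios to macrophage markers were compared by exact permutation tests over libraries. Groups and replicate numbers came from the titles.

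The members and gene lists were chosen with earlier results of these data known. Named were all members, up to 3 called genes of each list with the largest change, the 2 called genes with the largest change against the list's median, the 2 most abundant genes of a list with none called, and the genes nearest in profile to each member. Other genes named (Hcst, Syk, Apoc1, Trem1, Lgals1, Itgax, Mitf, Csf1r, Lyve1, Calcr, Nr1h3, Clec7a, Capg, Ccr2 and the like) were chosen after their values were seen. Alternatives changed the pseudocount, filter, scaling, trend, replicate block and libraries; voom on the recovered reads was added after seeing the data. Gene positions are from GENCODE M21 (GRCm38) and promoters from RefSeq.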

Additional observations from a re-analysis of the deposited data

How the results depend on the processing

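Over the 17 alternatives none of the 8 members changed direction. With a replicate block, 636 genes were higher and 378 lower, and 6 members were called, Tyrobp having an adjusted p of 0.0564. Deviations of same-numbered libraries from their group means had correlations of -0.181, -0.180 and -0.081. With 3 libraries a group these values cannot show whether same-numbered libraries shared a batch or handling. Whether calls lost under the block are weaker effects therefore cannot be told. Without creeping fat 2 and control 2 the counts were 2713 higher and 1731 lower, and the ratios to macrophage markers reversed to -0.35 for Cd9 and -0.0958 for Lgals3. With 1 library left out at a time, genes higher ran from 576 (without creeping fat 1) to 2896 (without control 2), genes lower from 287 (without creeping fat 1) to 1857 (without control 2), and members higher from 3 (without control 3) to 7. The ratio to macrophage markers then ran from -0.39 to 0.50 for Cd9, from -0.35 to 0.44 for Lgals3, from -0.78 to 0.055 for Apoe and from -1.80 to -0.08 for Fabp5. Relative to Ptprc alone the ratio was 1.00 for Apoe and 0.44 for Fabp5. Log2 fold changes of genes that were not called also changed sign: with 1 library left out, Gzma ran from -0.35 to 0.27, Hoxa10 from -0.064 to 0.87, Prdx1 from -0.11 to 0.51 and Pmp22 from -0.20 to 0.43, and without both libraries Gzma was 0.24, Prdx1 -0.032, Pmp22 -0.0935 and Ccr7 0.071. The cause was not tested. The median of all genes was 0.13 without control 2 and 0.15 without both libraries. With no filter 1102 genes were higher and 719 lower of 18714 tested, and 6 members were called. With 3 libraries a group, precision is limited by their number, and genes near the floor of 3 reads have no reliable fold change.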
